A study of Mus musculus with 473 samples.

Results

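The 10 immediate early genes Fos, Fosb, Jun, Junb, Egr1, Ier2, Dusp1, Btg2, Npas4 and Atf3 were followed across the cell groups of a single-cell RNA study of the mouse brain. They were taken by name, not by their values, and all 10 were found among the 28952 features of the deposited expression table. The study measured polyadenylated RNA with Smart-Seq2 in 473 single cells sorted by green fluorescence from Th:EGFP mice. This BAC transgene (Tg(Th-EGFP)DJ76Gsat, carried by hemizygous males crossed to Swiss Webster dams) places eGFP under the control of the tyrosine hydroxylase (Th) gene, so a sorted cell is one with reporter protein, not necessarily one with Th RNA. As the series title states, dopaminergic neurons were profiled to inform which genes to consider in sporadic Parkinson's disease.

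The groups were postnatal day 7 (P7) midbrain (MB), P7 forebrain (FB, labelled hypothalamus at dissection), P7 olfactory bulb (OB), embryonic day 15.5 (E15.5) MB and E15.5 FB, all of transgene-positive animals with no drug or genetic treatment. Tissue of 5 P7 mice or of 4 embryos was pooled for each region before dissociation, so each group is 1 pool of animals, and differences between groups have no replicate check. All tissue was dissociated with papain at body temperature. This took up to 1.5 hours for P7 tissue, which then also passed a density gradient, and at most 40 minutes for E15.5 tissue. All cells were then held for sorting in a medium with the glutamate receptor blockers AP-V and kynurenic acid. The cells used number 249 of the 396 that passed the authors' quality control: 30 of P7 MB, 31 of P7 FB, 16 of P7 OB, 88 of E15.5 MB and 84 of E15.5 FB.

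Immediate early genes are transcribed within minutes of a stimulus from factors already present in the cell, and in neurons their RNA is a common read-out of recent synaptic activity. The same genes respond to growth factors, stress and the dissociation of tissue. Fos, Fosb, Jun, Junb and Atf3 encode leucine zipper proteins that pair into AP-1 and related transcription factors, Egr1 encodes a zinc finger factor and Npas4 a neuronal factor that is induced by calcium entry. Dusp1 encodes a phosphatase that switches off MAP kinases, Btg2 an antiproliferative co-factor of transcription and RNA decay, and Ier2 a small nuclear protein.

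Many promoters of this class carry the cyclic AMP response element (CRE), which binds CREB. The sequences below run from 250 bases before to 50 bases after the start of the RefSeq gene in build GRCm38.p6. They are the windows that held a CRE half-site, leaving out Atf3, which was found in 3 cells in all. Capitals mark every CRE half-site TGACG on either strand, so that a full CRE, TGACGTCA, is a pair of overlapping half-sites, and the letters TATAA on the gene's own strand. In the order printed, the windows are chr12:85473640-85473939 (plus strand), chr7:19309996-19310295 (minus), chr8:84978699-84978998 (minus), chr17:26508423-26508722 (minus), chr1:134079106-134079405 (minus) and chr19:4989922-4990221 (minus).
Fos: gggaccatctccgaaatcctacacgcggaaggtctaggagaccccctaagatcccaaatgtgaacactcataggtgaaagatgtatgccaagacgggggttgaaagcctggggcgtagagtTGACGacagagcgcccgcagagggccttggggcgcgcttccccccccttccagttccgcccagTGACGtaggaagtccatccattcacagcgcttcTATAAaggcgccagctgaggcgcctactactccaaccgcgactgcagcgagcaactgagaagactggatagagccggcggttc
Fosb: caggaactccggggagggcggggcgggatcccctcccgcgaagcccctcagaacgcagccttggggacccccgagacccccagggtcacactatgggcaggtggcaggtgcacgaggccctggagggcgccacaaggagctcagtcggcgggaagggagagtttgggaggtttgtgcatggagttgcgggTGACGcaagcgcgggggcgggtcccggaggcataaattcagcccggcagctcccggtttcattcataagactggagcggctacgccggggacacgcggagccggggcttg
Junb: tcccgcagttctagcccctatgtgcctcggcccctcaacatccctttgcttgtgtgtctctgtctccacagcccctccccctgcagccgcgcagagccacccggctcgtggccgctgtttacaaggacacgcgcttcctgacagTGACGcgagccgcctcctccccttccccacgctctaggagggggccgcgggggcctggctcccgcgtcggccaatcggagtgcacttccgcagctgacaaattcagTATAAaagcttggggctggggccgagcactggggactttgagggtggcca
Dusp1: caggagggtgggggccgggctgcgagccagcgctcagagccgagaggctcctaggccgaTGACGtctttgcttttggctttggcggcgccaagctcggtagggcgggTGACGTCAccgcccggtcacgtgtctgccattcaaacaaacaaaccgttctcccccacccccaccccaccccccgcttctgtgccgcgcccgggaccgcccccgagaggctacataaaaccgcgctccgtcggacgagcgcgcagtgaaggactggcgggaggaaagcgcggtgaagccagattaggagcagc
Btg2: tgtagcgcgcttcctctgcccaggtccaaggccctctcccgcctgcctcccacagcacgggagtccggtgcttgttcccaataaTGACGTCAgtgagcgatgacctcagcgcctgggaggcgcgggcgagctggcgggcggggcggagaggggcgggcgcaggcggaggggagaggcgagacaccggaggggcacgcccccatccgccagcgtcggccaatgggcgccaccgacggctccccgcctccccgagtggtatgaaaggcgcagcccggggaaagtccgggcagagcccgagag
Npas4: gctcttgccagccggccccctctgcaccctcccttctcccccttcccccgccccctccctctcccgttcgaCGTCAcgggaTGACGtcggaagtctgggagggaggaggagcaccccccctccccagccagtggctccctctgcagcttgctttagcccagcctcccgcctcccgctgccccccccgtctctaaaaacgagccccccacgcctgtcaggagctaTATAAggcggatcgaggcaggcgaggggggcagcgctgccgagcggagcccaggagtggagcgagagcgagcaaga

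Of the 8 members matched in the promoter table (Egr1 and Ier2 are not shown), 7 held a CRE half-site, all but Jun, against 20.9% of the 32544 distinct promoter windows of the table. A full CRE stood in the windows of Btg2 and Dusp1, against 1.8% of all windows. TATAA stood in those of Fos, Junb and Npas4, against 17.5%. The EGR site GCGNGGGCG stood in those of Fosb and Btg2, against 5.6%, and overlapped none of the half-sites. Neither the AP-1 site TGANTCA (7.79% of all windows) nor the CArG box of the serum response element (1.64%) occurred in these 8 windows on either strand. In GENCODE M21 (GRCm38) the other members lie at chr4:95049034-95052222 (Jun), chr18:34859823-34864984 (Egr1), chr8:84661331-84662852 (Ier2) and chr1:191170296-191218039 (Atf3). The motif counts are matches of letters in short windows of unequal base composition, and bases outside these windows were not searched.

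Values are FPKM, fragments per kilobase of transcript relative to the library's mapped fragments, as the authors deposited them. The gene number in each cell's label matched its column on 3 of the 5 library plates. On 2 of the 3 P7 plates it did so only after the columns of those plates were exchanged well by well (correlations of 0.999 on both, against -0.0338 and -0.0519 by name), so the P7 values rest on 1 plate, and the exchanged plates are set beside them. The depth of a cell in reads is unknown. The labels give a median of 6126.5 genes per cell in P7 MB, 5164 in P7 FB, 3310 in P7 OB, 6227.5 in E15.5 MB and 5554.5 in E15.5 FB. The median of the FPKM summed over all features was 493126 in P7 MB, 517940 in P7 FB, 545503 in P7 OB, 972789 in E15.5 MB and 1054300 in E15.5 FB. The members' differences between ages are therefore also given with each cell rescaled to the same sum. Th was read in each group. Finding Th cannot check the labelled tissue, because the cells of all regions were sorted on its reporter. Taking 1 FPKM as found, here and throughout, Th was found in 96.7% of P7 MB, 96.8% of P7 FB and 100% of P7 OB cells, but in only 29.5% of E15.5 MB and 32.1% of E15.5 FB cells. The neuronal gene Tubb3 was found in every cell of all groups but P7 OB, where 1 of the 16 cells lacked it. Microglial markers (Cx3cr1, P2ry12, C1qa and 5 others) were nearly absent, with 6 or 7 of the 8 listed at 0 in each group but E15.5 MB, where 5 were. Their summed FPKM peaked at 123 in 1 E15.5 MB cell and reached at most 11.0 in any cell of the other groups. Astrocyte markers were higher in P7 FB, where all 6 were found and their summed FPKM ran from 0 to 433 with a median of 65.2, against medians of 0 in P7 MB, 0.235 in P7 OB and 0 in both E15.5 groups. Most of this was Aldoc, with a mean of 99.97 in P7 FB, against 14.18 in P7 MB, 2.88 in P7 OB and 8.35 in E15.5 FB, while Gfap was found in 3 and Aqp4 in 2 of the 31 P7 FB cells. In P7 FB the sum had a rank correlation of -0.32 with the mean log2 level of the members (31 cells), and its part in the P7 FB differences was not tested.

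Fos, the leading member of AP-1, had the highest mean FPKM of the 10 genes in all 5 groups. It ranged over cells from 0 to 176 FPKM with a median of 17.6 in P7 MB, from 0 to 731 with a median of 2.59 in P7 FB, and from 25.1 to 554 with a median of 208 in P7 OB. At E15.5 it ranged from 0 to 6084 with a median of 175 in MB and from 0 to 4023 with a median of 248 in FB. The cells of all groups thus overlapped, but no P7 OB cell was without Fos, whereas 11 of 30 P7 MB and 13 of 31 P7 FB cells were below 1 FPKM. With the exchanged plates Fos was found in 42 of 75 P7 MB, 50 of 81 P7 FB and 55 of 68 P7 OB cells, so P7 OB cells without it occurred on those plates. On the plates used, the means were 32.9 ± 47.95 in P7 MB, 108 ± 212 in P7 FB, 228 ± 158 in P7 OB, 317 ± 670 in E15.5 MB and 488 ± 682 in E15.5 FB (SD over cells, n as above). Fos was found in 63.3% of P7 MB cells (95% exact binomial interval 43.9 to 80.1%, counting error only), 58.1% of P7 FB (39.1 to 75.5%), 100% of P7 OB (79.4 to 100%), 86.4% of E15.5 MB (77.4 to 92.8%) and 80.95% of E15.5 FB cells (70.9 to 88.7%).

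Fosb, a partner of the Jun proteins like Fos, was low in all 3 P7 groups. It averaged 0.505 ± 1.32 FPKM in P7 MB, 2.78 ± 7.96 in P7 FB, 6.09 ± 11.95 in P7 OB, 37.7 ± 46.4 in E15.5 MB and 61.7 ± 155 in E15.5 FB. It was found in 16.7% of P7 MB, 22.6% of P7 FB and 31.2% of P7 OB cells, but in 68.2% of E15.5 MB and 64.3% of E15.5 FB cells. The P7 intervals (highest bound 58.7%, in the 16 P7 OB cells) and the E15.5 intervals (lowest bound 53.1%) overlapped only through P7 OB. How many other features lay as far apart is not given.

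Jun averaged 21.5 ± 24.4 FPKM in P7 MB, 17.7 ± 30.5 in P7 FB, 86.4 ± 107 in P7 OB, 96.7 ± 125 in E15.5 MB and 231 ± 339 in E15.5 FB. Junb averaged 5.33 ± 13.4 in P7 MB, 21.9 ± 34.1 in P7 FB, 45.97 ± 63.3 in P7 OB, 28.7 ± 66.9 in E15.5 MB and 78.9 ± 313 in E15.5 FB. Both are dimer partners of Fos. Their groups ran in different orders, with P7 OB among the higher groups for Junb and close to E15.5 MB for Jun. Atf3, induced by cell stress and axon injury, was almost undetected. It reached 1 FPKM in no P7 cell used, which allows a share of up to 10.0% of P7 MB, 9.68% of P7 FB and 18.8% of P7 OB cells, in 1 of 88 E15.5 MB cells (279 FPKM), and in 2 of 84 E15.5 FB cells (at most 105 FPKM).

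Egr1 had its highest mean in P7 OB on the plate used, but not with the exchanged plates, where it averaged 59.5 FPKM in P7 OB, against 73.2 in E15.5 FB. On the plate used, it ranged in P7 OB from 0 to 562 FPKM with a median of 96.5 and was found in 81.2% of cells (54.4 to 96.0%). In P7 MB it ranged from 0 to 31.6 with a median of 0 (23.3% of cells, 9.93 to 42.3%), and in P7 FB from 0 to 599 with a median of 0.513 (45.2%, 27.3 to 63.97%). The medians were 0 in E15.5 MB (36.4% of cells) and 4.42 in E15.5 FB (51.2% of cells). The mean was 3.29 ± 7.49 in P7 MB, 41.2 ± 114 in P7 FB, 129 ± 141 in P7 OB, 18.4 ± 46.4 in E15.5 MB and 73.2 ± 329 in E15.5 FB, and 48.7% of the E15.5 FB sum came from 1 cell at 2992. Npas4 was found in 13.3% of P7 MB, 12.9% of P7 FB, 31.2% of P7 OB, 27.3% of E15.5 MB and 23.8% of E15.5 FB cells, with means of 2.36, 2.62, 16.4, 7.36 and 18.4 FPKM in the same order.

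Dusp1 was the member that nearly every embryonic cell carried. It was found in 43.3% of P7 MB (25.5 to 62.6%), 32.3% of P7 FB (16.7 to 51.4%) and 25% of P7 OB cells (7.27 to 52.4%), against 89.8% of E15.5 MB (81.5 to 95.2%) and 96.4% of E15.5 FB cells (89.9 to 99.3%), so that the intervals of the ages did not overlap. These intervals cover counting error in cells of 1 pool per group. The share of all features that were as far apart is not given. With the exchanged plates Dusp1 was found in more P7 cells, 36 of 75 in P7 MB (interval 36.3 to 59.8%), 55.6% of P7 FB (44.1 to 66.6%) and 41.2% of P7 OB (29.4 to 53.8%), still with no overlap. Its median was 0.234 FPKM in P7 MB, 0 in P7 FB, 0.155 in P7 OB, 137 in E15.5 MB and 213 in E15.5 FB. The mean was 16.1 ± 32.9 in P7 MB, 33.2 ± 79.3 in P7 FB, 32.02 ± 102 in P7 OB, 206 ± 214 in E15.5 MB and 382 ± 451 in E15.5 FB, and 79.2% of the P7 OB sum came from 1 cell at 406.

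Btg2 was found in its largest share of cells in P7 MB: 53.3% of P7 MB (34.3 to 71.7%), 16.1% of P7 FB (5.45 to 33.7%), 25% of P7 OB, 35.2% of E15.5 MB and 27.4% of E15.5 FB cells. Its mean was 12.2 ± 15.4 FPKM in P7 MB, 5.42 ± 15.0 in P7 FB, 32.1 ± 89.4 in P7 OB, 27.4 ± 68.4 in E15.5 MB and 38.2 ± 225 in E15.5 FB, and single cells held 68.4% of the P7 OB and 63.98% of the E15.5 FB sum. Ier2 was close to absent from P7 MB, where it was found in 2 of 30 cells, against 4 of 31 P7 FB, 7 of 16 P7 OB, 37 of 88 E15.5 MB and 27 of 84 E15.5 FB cells. Its means in the same order were 1.19, 23.5, 18.8, 27.4 and 60.7 FPKM.

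**Figure D1:**
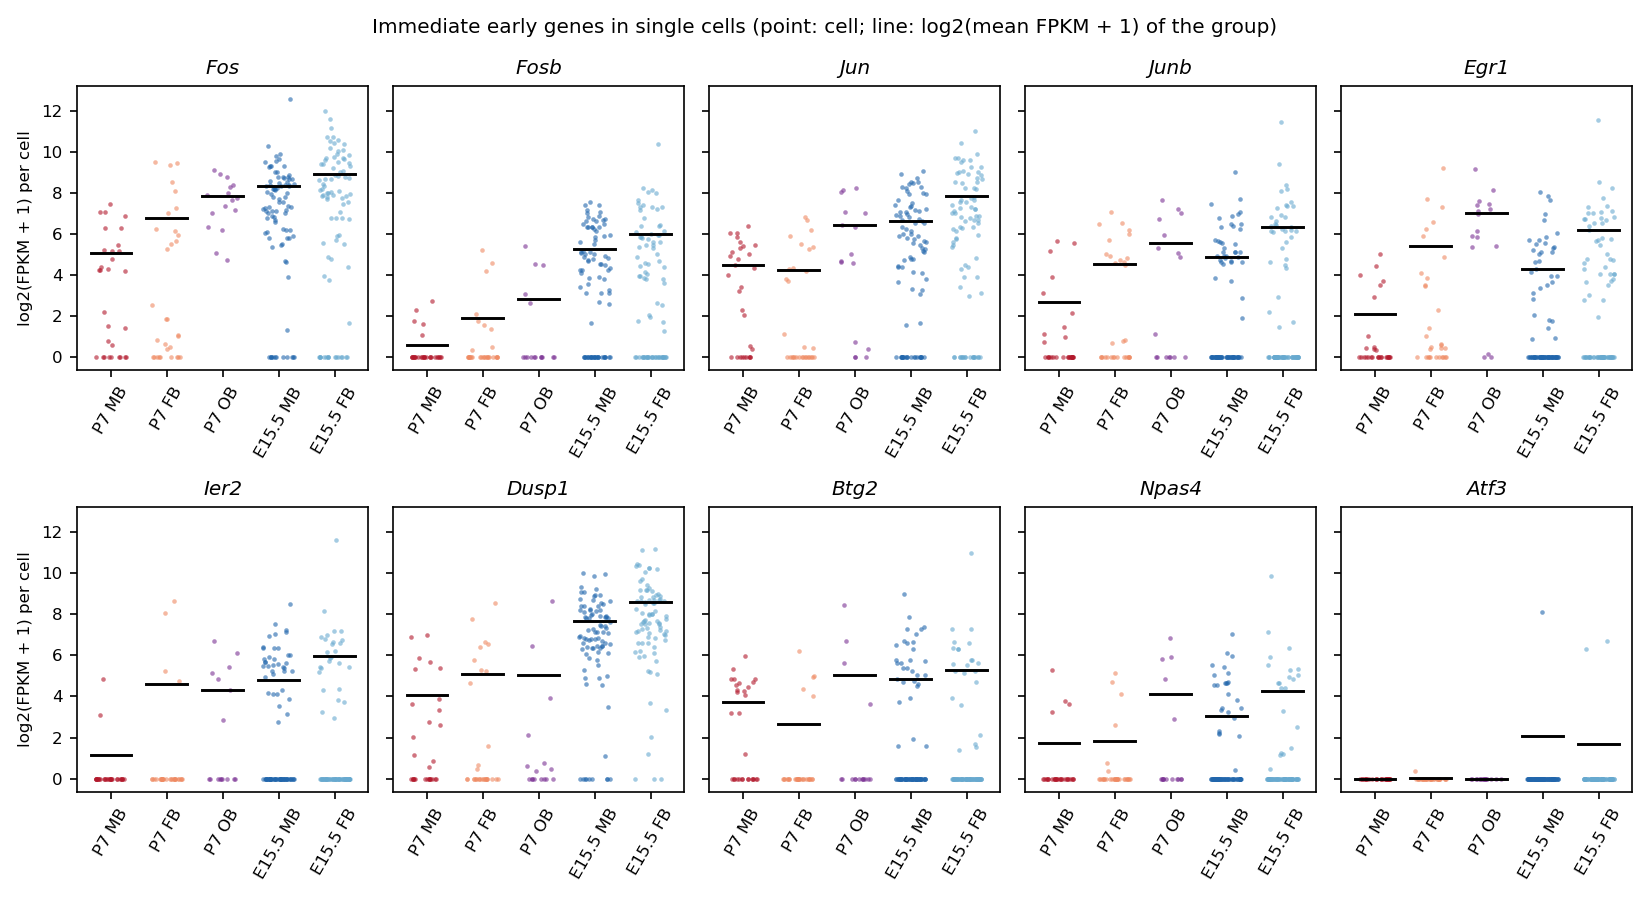
Each panel is 1 gene and each point 1 cell, on the scale log2(FPKM + 1), with the 5 groups along the axis and a line at the log2 of the group's mean FPKM + 1. Dusp1 and Fosb reach 1 FPKM in most E15.5 cells and in a minority of the P7 cells plotted (with the exchanged plates, Dusp1 does so in 55.6% of P7 FB cells), Egr1 does so in 81.2% of P7 OB cells, and Ier2 in 2 of 30 P7 MB cells.

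Between regions at P7, MB was the group with the lowest Egr1, Ier2, Junb and Fos. In P7 MB over P7 FB, 5 members were at least 2-fold lower in mean FPKM (log2 of the means, 1 added to each), against 13.8% of the 13041 features with a mean of 1 or more in the higher group. They were Ier2 (log2 -3.48), Egr1 (-3.30), Junb (-1.85), Fos (-1.69) and Fosb (-1.33). In P7 FB 1 cell held 55.3% of the Ier2 sum, and 1 cell held 46.9% of the Egr1 sum. Without the highest cell of each group, Ier2 averaged 0.256 FPKM in P7 MB, against 10.9 in P7 FB, and Egr1 2.32, against 22.6. Btg2 was the 1 member at least 2-fold higher (log2 1.04), against 10.8% of features. Dusp1 (-0.9997), Npas4 (-0.11) and Jun (0.27) lay within the 2-fold band. The members' median was -1.16, against -0.08 over all features.

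The same 4 genes were lower in P7 MB on each P7 plate, the 2 exchanged ones included. Egr1 averaged 3.29, 1.38 and 3.02 FPKM in P7 MB on the plate used and the first and second exchanged plates, against 41.2, 21.1 and 30.6 FPKM in P7 FB. Fos averaged 32.9, 13.6 and 9.18 in P7 MB, against 108, 44.8 and 74.2 in P7 FB. Junb averaged 5.33, 1.30 and 2.05 in P7 MB, against 21.9, 8.46 and 13.6 in P7 FB. No plate mean of P7 MB reached any plate mean of P7 FB for these 3 genes. The plates hold cells of the same pools, and the 4 genes were named from the plate used. How many other features did the same is not given. Ier2 averaged 1.19 and 0.0677 and was listed at 0 on the 3 plates in P7 MB, against 23.5, 2.04 and 5.39 in P7 FB. Btg2 was 12.2, 6.44 and 13.4 in P7 MB, against 5.42, 5.92 and 5.56 in P7 FB, and over all 3 plates its log2 was 0.86, under 2-fold. By the mean of log2(FPKM + 1) per cell, which gives single high cells less weight, only Egr1 (-1.40) and Junb (-1.37) were at least 2-fold lower, and Fos was at -0.21. The highest Fos cell had 176 FPKM in P7 MB, against 731 in P7 FB, while Fos was found in 63.3% of P7 MB cells, against 58.1% of P7 FB cells.

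In P7 MB over P7 OB, 8 of the 10 members were at least 2-fold lower, against 20.3% of 12896 features, and none was at least 2-fold higher, against 29.8%. The largest differences were those of Egr1 (log2 -4.91), Ier2 (-3.17), Junb (-2.89) and Fos (-2.76), followed by Npas4 (-2.37), Fosb (-2.24), Jun (-1.96) and Btg2 (-1.33). Dusp1 was at -0.95, and Atf3 was listed at 0 in both groups. The members' median was -2.30 and that of all features 0.13. On the exchanged plates Egr1 averaged 1.38 and 3.02 FPKM in P7 MB, against 32.7 and 44.2 in P7 OB, and Junb 1.30 and 2.05 in P7 MB, against 12.6 and 21.8 in P7 OB. The Btg2 and Dusp1 differences depended on single P7 OB cells: without the highest cell of each gene they were -0.04 and 0.72. By the mean of log2 values both were higher in P7 MB (0.76 and 0.44).

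In P7 FB over P7 OB, 6 members were at least 2-fold lower, against 18.0% of 12867 features: Btg2 (log2 -2.37), Npas4 (-2.27), Jun (-2.23), Egr1 (-1.62), Fos (-1.07) and Junb (-1.04). None was at least 2-fold higher, against 31.1% of features, and Fosb (-0.91), Ier2 (0.31) and Dusp1 (0.05) were within 2-fold. The members' median was -1.05, against 0.22 over all features. This difference was smaller with the exchanged plates, where over all 3 plates 2 members were at least 2-fold lower, Btg2 (-1.63) and Jun (-1.01), against 9.41% of features. Jun was close to equal between P7 FB and P7 OB on each exchanged plate, with means of 10.4 and 12.7 FPKM in P7 FB, against 10.6 and 11.3 in P7 OB. P7 OB cells had the fewest genes per cell. The part of this in the result was not tested. Rescaled, 5 members were at least 2-fold lower, against 18.8% of features.

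**Figure D2:**
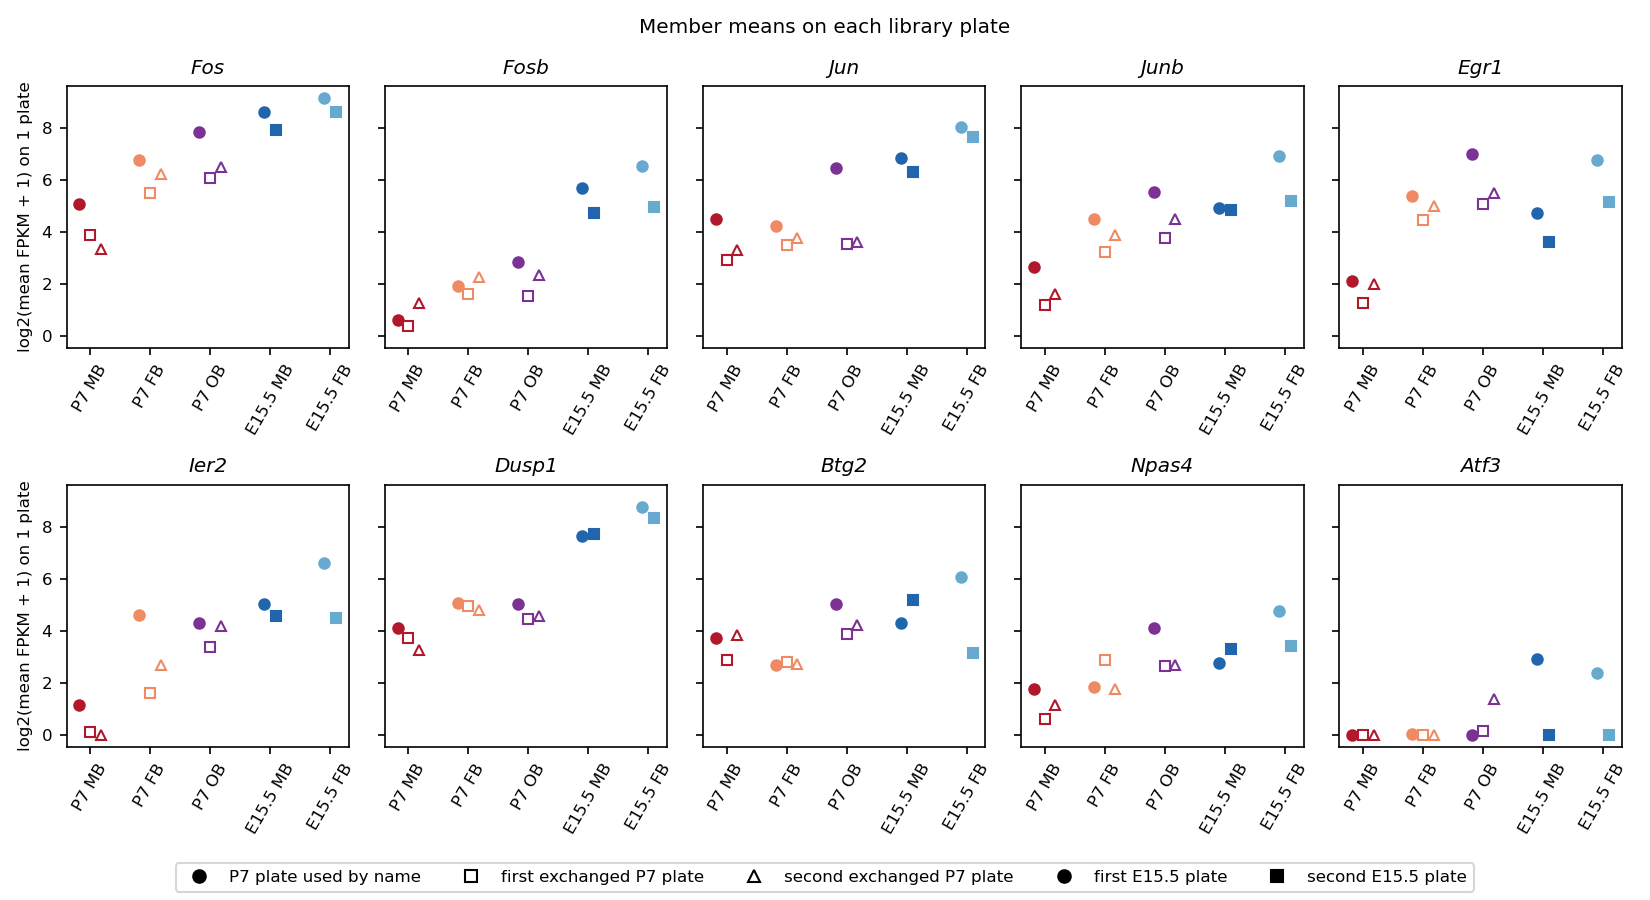
Each point is the mean FPKM of 1 gene over the cells of 1 group on 1 library plate, as log2(mean + 1), with open symbols for the 2 P7 plates whose columns were exchanged. Egr1, Fos, Junb and Ier2 are lower in P7 MB than in P7 FB and P7 OB on each of the 3 P7 plates, and Jun in P7 OB is high on 1 plate alone (86.4 FPKM, against 10.6 and 11.3).

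Between ages, nearly all members were lower at P7, but so were most genes. In P7 FB over E15.5 FB, 9 of 10 members were at least 2-fold lower, against 58.8% of 14088 features, and none was at least 2-fold higher, against 6.73%. The largest differences were those of Fosb (log2 -4.05), Jun (-3.64) and Dusp1 (-3.48), and the members' median of log2 -2.29 stood beside a median of -1.20 over all features. With each cell rescaled to the same sum, the median of all features moved to -0.25 and that of the members to -1.23, and 7 members were at least 2-fold lower, against 25.5% of features. They were Fosb (-2.96), Jun (-2.33), Dusp1 (-2.29), Btg2 (-1.54), Npas4 (-1.34), Atf3 (-1.13) and Fos (-1.05). Ier2 (-0.41) and Junb (-0.52) were within 2-fold. Egr1 was lower in P7 FB as deposited (-0.81) but higher when rescaled (0.58), and as deposited Egr1 (0.11) and Ier2 (0.02) were higher once 1 E15.5 FB cell, described below, was left out.

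In P7 MB over E15.5 MB, 10 of 10 members counted as at least 2-fold lower, against 58.4% of 14082 features, Atf3 among them although it was listed at 0 in P7 MB, so that no fold is given. None was at least 2-fold higher, against 5.23%. The largest differences were those of Fosb (log2 -4.69), Ier2 (-3.69), Dusp1 (-3.60) and Fos (-3.23). The members' median was -2.20, against -1.18 over all features. After rescaling, 7 were at least 2-fold lower, against 24.6% of features: Fosb (-4.02), Ier2 (-2.78), Dusp1 (-2.49), Fos (-2.03), Egr1 (-1.38), Junb (-1.37) and Jun (-1.07). Npas4 was at -0.70 and Btg2 at -0.08, and Btg2 was higher in P7 MB (0.36) when the exchanged plates were added and rescaled. Fosb and Dusp1 were thus lower at P7 in both regions by at least 4-fold under either scaling, on the plate used. With all 3 P7 plates, 2 exchanged, and rescaling, Fosb was at -2.31 in FB and -3.30 in MB, and Dusp1 at -1.58 in FB and -2.28 in MB. Age cannot be told apart from sort date, sequencing run, dissociation time, the density gradient or the FPKM sum, all of which differed with it. The share of cells with Th also differed (nearly all at P7, about 3 in 10 at E15.5); its part in these differences was not tested.

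In E15.5 MB over E15.5 FB, 5 members were at least 2-fold lower, against 9.41% of 14405 features: Egr1 (log2 -1.93), Junb (-1.43), Jun (-1.25), Npas4 (-1.21) and Ier2 (-1.12). None was at least 2-fold higher, against 8.46%. Dusp1 (-0.89), Fosb (-0.70), Fos (-0.62) and Btg2 (-0.46) were within 2-fold, and Atf3, found in 3 cells in all, was higher in E15.5 MB as deposited (0.39) and lower when rescaled (-0.49). The members' median was -1.005, against -0.12 over all features. Without the 1 E15.5 FB cell described below, 2 remained, Jun (-1.23) and Egr1 (-1.01), whereas Btg2 (0.93), Ier2 (0.23) and Npas4 (0.02) were then higher in E15.5 MB. Rescaled to the same sum, 3 were lower, Egr1 (-1.74), Junb (-1.18) and Jun (-1.14), against 5.79% of features. Jun and Egr1 were lower in E15.5 MB on both plates. Jun averaged 116 and 78.3 FPKM in E15.5 MB on the first and second plate, against 261 and 200 in E15.5 FB, and Egr1 25.9 and 11.3 in E15.5 MB, against 110 and 34.7 in E15.5 FB. For neither gene did a plate mean of E15.5 MB reach one of E15.5 FB. The plates hold cells of the same pools, and both genes were named from these same cells. How many other features did the same is not given. The first-plate Egr1 mean of E15.5 FB includes 1 cell at 2992 FPKM, described below. Btg2 changed sign between the plates, with log2 of -1.79 on the first plate, which holds that cell, and 2.04 on the second.

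**Figure D3:**
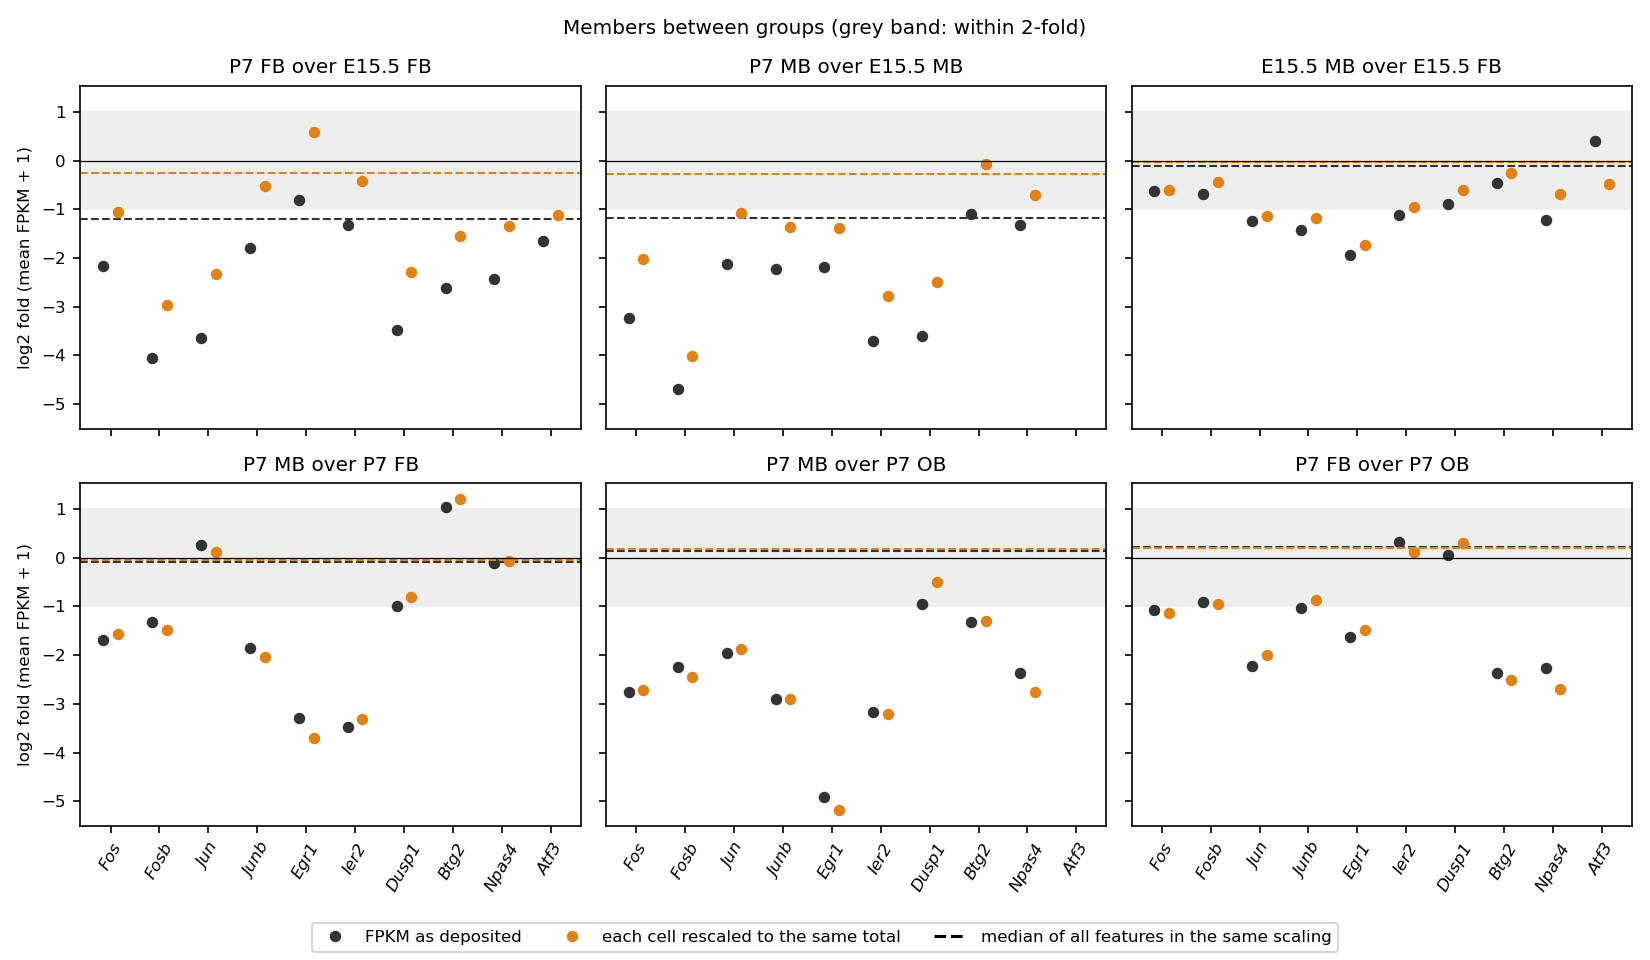
Each panel is 1 comparison, with the log2 of the ratio of mean FPKM + 1 for each member, as deposited (dark) and with each cell rescaled to the same sum (orange), dashed lines for the median of all features and a grey band for differences under 2-fold. Genes with a group at 0 have no point. The dashed lines of the 2 age comparisons move from about -1.2 to about -0.3 on rescaling, and Fosb and Dusp1 remain at or below -2.29.

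Within a group, high levels of the members fell in the same cells in P7 FB, to a lesser degree in both embryonic groups, and not in P7 MB on the plate used. The number of members found per cell (of 10) ran from 1 to 6 with a median of 3 in P7 MB, from 0 to 9 with a median of 2 in P7 FB, from 1 to 7 with a median of 4 in P7 OB, from 0 to 9 with a median of 5 in E15.5 MB and from 1 to 9 with a median of 5 in E15.5 FB. At least 5 were found in 13.3% of P7 MB cells (4 of 30, interval 3.76 to 30.7%), 22.6% of P7 FB (7 of 31, 9.59 to 41.1%), 43.8% of P7 OB (7 of 16, 19.8 to 70.1%), 63.6% of E15.5 MB (56 of 88, 52.7 to 73.6%) and 54.8% of E15.5 FB cells (46 of 84, 43.5 to 65.7%). The intervals of the 3 P7 groups overlapped each other. Those of P7 MB and P7 FB lay below those of both embryonic groups on the plates used. With the exchanged plates the interval of P7 FB overlapped that of E15.5 FB, and the share in E15.5 FB differed between its plates, as given below. No such share for other sets of genes is given.

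The variance of that number was set beside the sum of the variances that the 10 genes would give if each were found independently of the others. The ratio was 1.02 in P7 MB, 3.51 in P7 FB, 1.49 in P7 OB, 2.28 in E15.5 MB and 2.34 in E15.5 FB. No ratio for other genes is given. Cells also differed in their labelled gene number, from 2169 to 7487 in P7 FB, and the part of this in the ratio was not tested. P7 FB held both cells with none (5 of 31) and cells with 9 members (2 of 31). In the highest P7 FB cell, Fos was at 731, Egr1 at 158, Junb at 131, Jun at 111, Dusp1 at 98.8, Btg2 at 72.1, Ier2 at 37.1, Fosb at 35.96 and Npas4 at 33.8 FPKM, and this 1 cell was the highest of its group for 6 of the 9 members found. It was picked as the cell highest for the most members. The cell picked likewise was highest for 2 of 9 in P7 MB, 2 of 9 in P7 OB, 3 of 10 in E15.5 MB and 7 of 10 in E15.5 FB. Of the 18 P7 FB cells with Fos, 12 had Egr1, 11 had Junb and 7 had Fosb, and all 7 cells with Fosb had Fos. In P7 MB, of the 19 cells with Fos, 4 had Egr1, 3 had Junb and 2 had Fosb, out of 7, 8 and 5 cells with these genes.

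**Figure D4:**
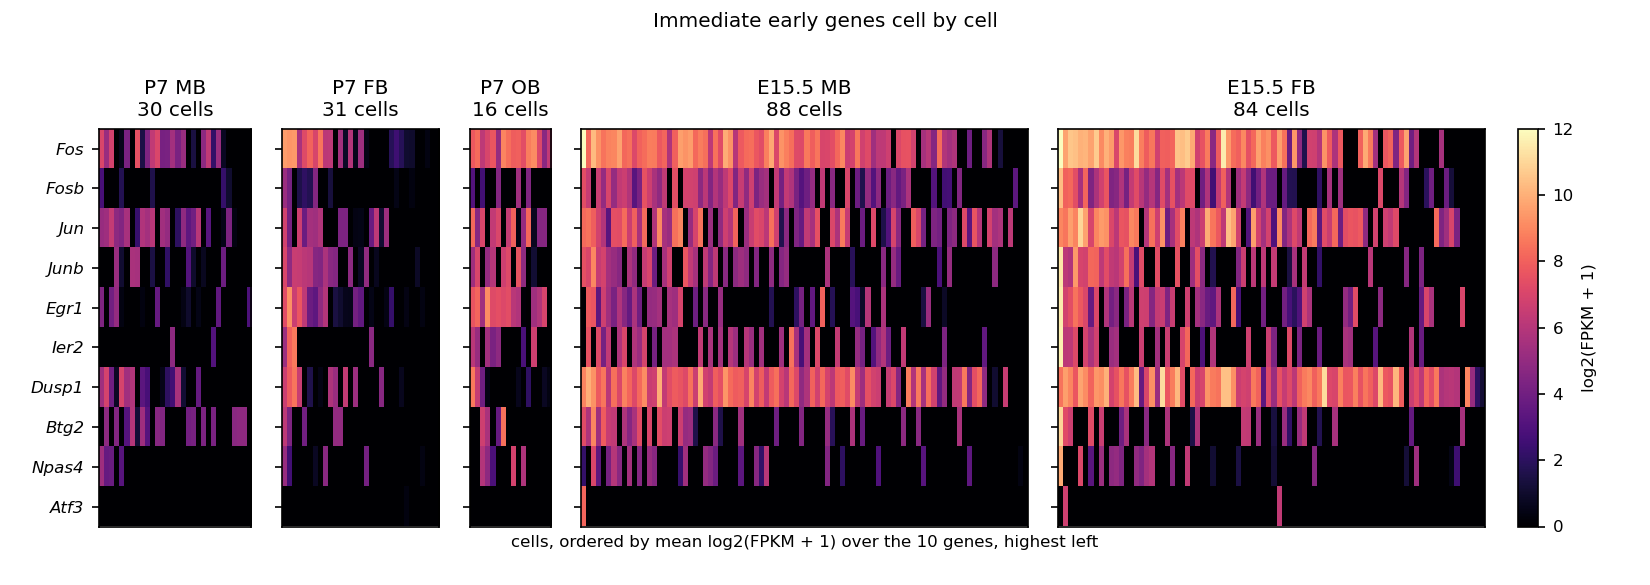
Rows are the 10 genes and columns single cells of each group, ordered by their mean log2(FPKM + 1) over the 10 genes, highest at the left, with colour for log2(FPKM + 1). In P7 FB a few cells at the left carry most members at once and the rest carry few, in P7 MB no cell carries more than 6, and in the E15.5 groups Fos, Jun and Dusp1 extend over most cells.

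Spearman correlations between members across the cells of a group were likewise highest in P7 FB and lowest in P7 MB and P7 OB. The cells of a group share their preparation and, for the P7 cells used, their library plate. Many cells tie at 0, and the effect of these ties on the correlations was not tested. Among members found in at least 20% of cells, the median over pairs was -0.04 in P7 MB (6 members, 30 cells), 0.42 in P7 FB (6 members, 31 cells), 0.00 in P7 OB (9 members, 16 cells), 0.24 in E15.5 MB (9 members, 88 cells) and 0.21 in E15.5 FB (9 members, 84 cells). Over all pairs of features found that often, the median was 0.04 in P7 MB, 0.06 in P7 FB, 0.05 in P7 OB, 0.08 in E15.5 MB and 0.05 in E15.5 FB. The member sets differ between groups. The 6 of P7 MB include Btg2 but not Fosb, and the 6 of P7 FB include Fosb but not Btg2. In P7 FB 93.3% of the member pairs reached 0.3, against 10.6% of all feature pairs. In E15.5 MB and E15.5 FB 33.3% and 27.8% did, against 7.15% and 3.53%, and in P7 MB and P7 OB 6.67% and 13.9% did, against 8.42% and 17.5%.

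In P7 FB the closest pairs were Fos with Egr1 (0.69), Fos with Junb (0.68), Fos with Fosb (0.61) and Junb with Egr1 (0.61). In E15.5 FB they were Fos with Fosb (0.65) and Jun with Dusp1 (0.57), and in E15.5 MB Fos with Fosb (0.55) and Junb with Btg2 (0.45). P7 MB showed Dusp1 with Npas4 (0.55) and Jun with Dusp1 (0.49) but not the Fos pairs. Fos with Egr1 was at 0.06 in P7 MB, -0.04 in P7 OB, 0.28 in E15.5 MB and 0.12 in E15.5 FB. Averaged over the 5 groups, Jun with Dusp1 was at 0.40 and positive in 5 of 5, Fos with Junb at 0.40 and Fos with Fosb at 0.36, both positive in 4 of 5, and Fosb with Dusp1 at 0.30, positive in 5 of 5. With all 3 P7 plates the order differed: Fos with Fosb (0.45), Fos with Junb (0.45) and Junb with Egr1 (0.40) came before Jun with Dusp1 (0.33). With the number of genes detected per cell held fixed, the median over members found in at least 20% of cells was -0.04 in P7 MB, 0.42 in P7 FB, 0.07 in P7 OB, 0.22 in E15.5 MB and 0.20 in E15.5 FB.

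The exchanged plates gave higher values in P7 OB and P7 MB, while P7 FB was positive on each plate. The median over all member pairs was 0.31, 0.47 and 0.24 in P7 FB on the plate used and the first and second exchanged plates. With the number of genes per cell held fixed, these P7 FB medians were 0.33, 0.49 and 0.13. In P7 OB the unadjusted median was 0.00, 0.30 and 0.34, so the 16 cells of the plate used stand apart from the 27 and 25 cells of the others. In P7 MB it was -0.00, 0.18 and 0.19, and over all 75 P7 MB cells 0.03. Among members found in at least 20% of cells, the median over all 3 plates was 0.03 in P7 MB, 0.36 in P7 FB and 0.25 in P7 OB, against 0.08, 0.09 and 0.05 over all feature pairs of these groups. At least 5 members were found in 21.3% of P7 MB, 37.0% of P7 FB and 36.8% of P7 OB cells over all 3 plates. The interval of P7 FB was then 26.6 to 48.5%, which overlapped that of E15.5 FB. The variance ratios over these cells were 1.53 in P7 MB, 3.16 in P7 FB and 2.67 in P7 OB.

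**Figure D5:**
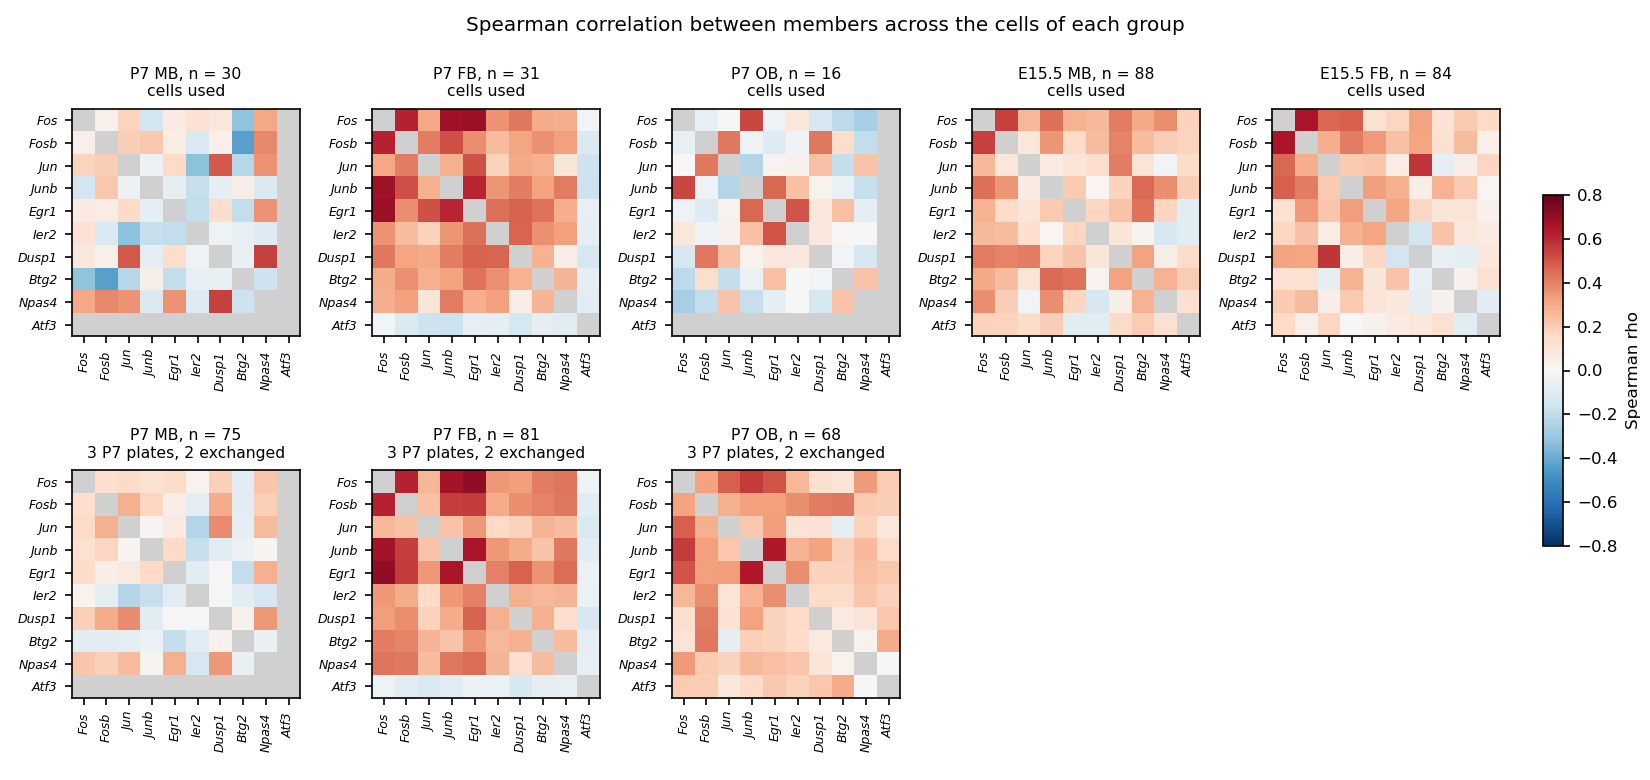
Each matrix shows Spearman correlations between the 10 genes across the cells of 1 group, with grey where a gene was constant; the upper row holds the cells used and the lower row the P7 groups with all 3 plates, 2 of them exchanged. Fos, Fosb, Junb and Egr1 form the reddest block in P7 FB in both rows (Fos with Egr1 at 0.69 in the upper row), P7 OB turns from mixed to mostly positive in the lower row, and P7 MB stays pale.

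The labels assign each cell to 1 of 13 clusters, which were made from these same cells, so the values below are descriptions. In P7 FB, cluster P7.FB.1 held the high cells. Fos averaged 237 ± 319 FPKM in its 10 cells, against 46.96 ± 98.4 in the 21 cells of P7.FB.2, Egr1 92.7 against 16.7, Dusp1 75.1 against 13.2 and Junb 37.7 against 14.4, while Jun was 17.9 against 17.6. With the exchanged plates, Fos averaged 167 in 26 cells of P7.FB.1, against 33.8 in 55 cells of P7.FB.2, and at least 5 members were found in 65.4% of P7.FB.1 cells (44.3 to 82.8%), against 23.6% of P7.FB.2 cells (13.2 to 37.0%).

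In P7 MB, P7.MB.1, the cluster with the highest Th (3004 FPKM), had the lowest Fos, at 8.10 ± 13.5 FPKM in 15 cells, against 48.4 in P7.MB.2 (4 cells), 105 in P7.MB.3 (4 cells) and 35.9 in P7.MB.4 (7 cells). Jun was found in all 7 cells of P7.MB.4 and in 7 of 15 cells of P7.MB.1, whereas Btg2 was higher in P7.MB.1 (17.2 FPKM) than in P7.MB.4 (6.66). Over all 3 plates Fos was 8.57 FPKM in 39 cells of P7.MB.1, against 31.3 in P7.MB.2, 51.5 in P7.MB.3 and 19.6 in P7.MB.4. In P7 OB, Fos was high in each cluster, from 154 in P7.OB.3 to 298 in P7.OB.2. Jun was found in all 5 cells of P7.OB.1 (mean 192 FPKM) and in 1 of 5 cells of P7.OB.2, while Btg2 was found in 3 of 5 cells of P7.OB.2 and was listed at 0 in P7.OB.1.

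At E15.5, cluster E15.FB.2 had Fos at 705 ± 625, Jun at 421 ± 351 and Dusp1 at 579 ± 564 FPKM in 24 cells, against 401 ± 690, 155 ± 305 and 303 ± 374 in the 60 cells of E15.FB.1. Jun differed most, with a median of 410 against 71.6. In E15.5 MB, the Th-rich cluster E15.MB.2 (Th mean 3780 FPKM, 20 cells) had Fos at 590 FPKM, against 237 in the 68 cells of E15.MB.1, but 51.6% of its Fos sum came from 1 cell, and the medians were 306 and 146. Ier2 was 53.8 in E15.MB.2, against 19.6 in E15.MB.1, and Dusp1 161 against 219. The 2 plates of E15.5 FB also differed: at least 5 members were found in 69.8% of its 43 cells on the first plate (53.9 to 82.8%) and in 39.02% of its 41 cells on the second (24.2 to 55.5%). In E15.5 MB the shares were 58.1% and 68.9%.

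A single E15.5 FB cell, picked out after the values were seen, carried a large part of the group's summed FPKM for several members. It was the highest of its 84-cell group for 7 of the 10 members, with Fos at 4023, Ier2 at 3174, Egr1 at 2992, Junb at 2771, Btg2 at 2053, Fosb at 1313 and Npas4 at 942 FPKM, whereas its Jun (509, group median 105) was above and its Dusp1 (368) below the group's upper quartile (317 and 453), and Atf3 was listed at 0. It held 63.98% of the group's Btg2, 62.3% of its Ier2, 61.1% of its Npas4, 48.7% of its Egr1, 41.8% of its Junb and 25.3% of its Fosb. Among the 33 further immediate early and stress response genes of the table, it was the group's highest for 9, with the orphan nuclear receptor genes Nr4a1 at 5200 (highest of the other 83 cells 262) and Nr4a3 at 900 (140), the dendritic transcript Arc at 811 (424), Egr4 at 179 (30.7) and Csrnp1 at 145 (5.07). Of the 33, 21 were found in this cell. Nr4a2, Dusp6 and Sgk1 were among those listed at 0, and Klf6 was at 37.9, against a mean of 192 in the other 83 cells. For how many of all features this cell was the highest is not given. The cell lay in cluster E15.FB.1, on the first E15.5 plate, with 6241 genes at FPKM of 1 or more and an FPKM sum of 1324790, beside group medians of 5874.5 genes and 1054300. Without it, Btg2 averaged 13.9, Ier2 23.2, Npas4 7.24, Egr1 38.02 and Junb 46.5 FPKM in E15.5 FB.

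Related gene lists, chosen with earlier results of these data known, were read beside the members. Of the further immediate early and stress response genes, 20 of 27 measured were at least 2-fold lower and 2 higher in P7 MB over P7 OB (median log2 -1.93, all features 0.13), and 18 of 27 lower and 2 higher in P7 FB over P7 OB (median -1.85, all features 0.22). Of all features, 20.3% were lower and 29.8% higher in P7 MB over P7 OB, and 18% and 31.1% in P7 FB over P7 OB. Nr4a1 averaged 4.96 ± 7.74 FPKM in P7 MB and 4.76 ± 11.7 in P7 FB, against 72.9 ± 126 in P7 OB. The stress gene Gadd45b averaged 2.76 in P7 MB and 0.436 in P7 FB, against 31.1 in P7 OB, and the ERK phosphatase gene Dusp6 4.04 in P7 MB and 3.92 in P7 FB, against 38.5 in P7 OB. In P7 MB over P7 FB, 5 of 25 were higher and 6 lower, with a median of 0.05, against 10.8% and 13.8% of features. Nr4a2, which also marks midbrain dopamine neurons, averaged 77.7 in P7 MB, against 4.96 in P7 FB, and Gadd45g 14.6 in P7 MB, against 43.98 in P7 FB. Between ages, 18 of 29 were lower and 1 higher in P7 FB over E15.5 FB, near the 58.8% of all features lower, and 26 of 31 were lower and none higher in P7 MB over E15.5 MB, against 58.4%. After rescaling these were 15 of 28 lower and 3 higher in FB and 12 of 28 lower and 1 higher in MB (medians -1.05 and -0.85, all features -0.25 and -0.28), against 25.5% and 24.6% of features lower. As deposited, the phosphatase gene Dusp4 averaged 5.62 in P7 FB, against 86.8 in E15.5 FB, and 1.84 in P7 MB, against 93.8 in E15.5 MB. In E15.5 MB over E15.5 FB, 8 of 32 were higher and 3 lower, against 8.46% and 9.41% of features.

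Among heat shock genes at P7, none of 14 was at least 2-fold higher and 3 were lower in P7 MB over P7 OB (median -0.09), and 1 was higher and 1 lower in P7 MB over P7 FB (median 0.13). Over all features the shares were 29.8% higher and 20.3% lower in P7 MB over P7 OB, and 10.8% and 13.8% in P7 MB over P7 FB. Between ages as deposited, 1 of 12 was higher and 5 lower in P7 FB over E15.5 FB, among them Hsph1 (log2 -1.91), Dnaja1 (-1.68) and Dnajb1 (-1.42), and 1 of 13 was higher and 4 lower in P7 MB over E15.5 MB, among them Dnajb1 (-1.56), Hsph1 (-1.35) and Hspa4l (-1.31). Of all features, 6.73% were higher and 58.8% lower in P7 FB over E15.5 FB, and 5.23% and 58.4% in P7 MB over E15.5 MB. Rescaled, the medians were 0.21 in FB and 0.17 in MB, with none lower, against 25.5% and 24.6% of features lower. The main cytosolic chaperone gene Hspa8 averaged 1956 ± 641 FPKM in P7 MB, against 1215 ± 555 in P7 OB. The summed level of the list ranged over cells from 3220 to 8488 in P7 MB, 1980 to 6434 in P7 FB, 1761 to 6169 in P7 OB, 1672 to 31820 in E15.5 MB and 2158 to 27418 in E15.5 FB. Its rank correlation with the mean log2 level of the members was 0.04 in P7 MB, -0.25 in P7 FB, 0.01 in P7 OB, 0.27 in E15.5 MB and 0.26 in E15.5 FB.

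The upstream kinases and transcription factors were within 2-fold for most genes inside P7. Of 19 measured, none was higher and 1 lower in P7 MB over P7 FB (median -0.11), against 10.8% and 13.8% of features. In P7 MB over P7 OB 3 were higher and 5 lower (median -0.44), against 29.8% and 20.3% of features. As deposited, Creb1, which encodes the CRE-binding factor, was lower at P7, with a mean of 2.06 in P7 FB, against 54.5 in E15.5 FB, and of 2.61 in P7 MB, against 32.1 in E15.5 MB. The kinase gene Map2k1 averaged 85.5 in P7 MB and 72.5 in P7 FB, against 10.1 in P7 OB, and the activity-regulated factor gene Mef2c 4.01 in P7 MB and 17.1 in P7 FB, against 61.5 in P7 OB. Of 11 late effectors measured, the slower targets of activity, 5 were at least 2-fold higher and 2 lower in P7 MB over P7 FB (median 0.91), against 10.8% and 13.8% of features, and of 10 measured in P7 MB over P7 OB 5 were higher and 3 lower (median 0.91), against 29.8% and 20.3%. Those higher in P7 MB over P7 FB included Nrn1, which encodes neuritin (91.7, against 5.24 FPKM in P7 FB, where 87.3% came from 1 cell), and the neurotrophin gene Bdnf (26.6, against 2.32 in P7 FB, where 82.7% came from 1 cell). Bdnf was listed at 0 in P7 OB. The rank correlation of the summed late effectors with the mean log2 level of the members was -0.40 in P7 MB, -0.25 in P7 FB, 0.36 in P7 OB, 0.34 in E15.5 MB and 0.44 in E15.5 FB.

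The genes most like the members in their cell-to-cell pattern were ranked by the Spearman correlation with the mean log2 level of the 10 members, averaged over the 5 groups, among 5588 features found in at least 20% of the cells of each group. Ilf2 led (0.38), followed by Cd81 (0.31), Rpl7l1 (0.30), mt-Cytb (0.30), Cct7 (0.29), Spata7 (0.29), Ube3a, Golga7, Phyh (0.28 each) and 0610037L13Rik (0.28), against a median of 0.05 over all 5588. None of these is a classical immediate early gene. With the exchanged plates, Nr4a1 (0.34) and the stress phosphatase subunit gene Ppp1r15a (0.27) ranked 1 and 3 of 5884, with Cd81 (0.31) between them. Cd81 and Cct7 were among the 10 in both rankings.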

How the data were processed

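RNA of single sorted cells was measured with Smart-Seq2, and the authors deposited 1 table of FPKM values made with HISAT2 and Cuffnorm on mouse build mm10, per the submitters' processing notes; tool versions are not given in the sources used here. FPKM is not a count, the read depth is unknown, and the kit does not mark strand, so overlapping antisense transcripts cannot be told apart. Of 28952 features, 28636 received a symbol from GENCODE M21 (GRCm38, the same assembly). The members and lists were chosen with earlier results of these data known.

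Groups follow the labels' age and region. Of 473 cells, 396 passed the authors' quality control. Those on 2 P7 plates whose columns matched the labels only after exchange (147 passed cells) were left out and used as an alternative, which departs from the design first planned with all 3 plates. A correlation of at least 0.9 between the labelled and the counted genes made a match. Group means of FPKM were compared as log2 ratios after adding 1, which understates the change of low genes. A gene was called at 2-fold where the higher group's mean reached 1. Each group is 1 pool of animals and cells are not replicates, so no p-value is given and SDs run over cells. Shares have exact Clopper-Pearson 95% intervals and a share of 0 its limit of 3 cells, both for counting error only. Housekeeping genes also had values of 0 in some cells, so such genes are described as listed at 0.

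The text names all 10 members, up to 3 genes of each further list with the largest difference in each comparison and a mean of at least 20 FPKM in 1 of its groups, and the 10 features most correlated with the members. The alternatives were the exchanged plates, rescaling of each cell to the same FPKM sum (751667), pseudocounts of 0.1 and 10, means of log2 values, single plates, failed cells added, and the highest cell left out. Scripts used Python 3.11.15, numpy 2.4.6, pandas 2.3.3, scipy 1.17.1 and matplotlib 3.10.9, and the comparison step was tested on simulated data. Promoters came from RefSeq tables of GRCm38.p6.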

Additional observations from a re-analysis of the deposited data

How the results depend on the processing

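No paired analysis was possible because each group is 1 pool of animals, the labels' numbers name cells, and no test was made. Of the counts and shares recomputed under the alternatives, 139 stayed within the limits set and 30 moved. Single genes changed direction as given above: Egr1 and Ier2 in P7 FB over E15.5 FB, Btg2 in P7 MB over E15.5 MB, Btg2, Ier2, Npas4 and Atf3 in E15.5 MB over E15.5 FB, and Btg2 and Dusp1 in P7 MB over P7 OB, among others. Members lower in P7 FB over E15.5 FB were 5, against 9, by means of log2 values and with 3 plates exchanged and rescaled, and in P7 MB over E15.5 MB 6, against 10, by means of log2 values. In E15.5 MB over E15.5 FB, members lower were 3 when rescaled and with a pseudocount of 10, and 2 by means of log2 values, without the highest cell of each gene, on the second plate and without the 1 high E15.5 FB cell, against 5, and 1 was higher on the second plate, against 0. Btg2 as the 1 member higher in P7 MB over P7 FB gave a count of 0 with 3 plates exchanged (rescaled or not), by column name, with failed cells, with a pseudocount of 10 and on the first exchanged plate. Members lower there were 2 by column name and by means of log2 values, against 5, and in P7 MB over P7 OB 0 by column name, against 8. In P7 FB over P7 OB, members lower were 2 with 3 plates exchanged and on the first exchanged plate, 3 on the second and when exchanged and rescaled, and 1 by column name, against 6. There 1 was higher by column name, with failed cells and without the highest cell, against 0. The share of cells with at least 5 members was 51.7% in P7 FB on the first exchanged plate, against 22.6%, and in E15.5 FB 69.8% and 39.02% on the 2 plates, against 54.8%. The values by column name use labels that did not match their columns. Where no share of all features was given for a setting, its counts show only how the members moved. The cause of the other changes was not tested. The settings that combined exchange with rescaling, single exchanged plates and the 1 high cell were chosen after seeing the data.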
